A study of Homo sapiens with 10 samples.

Results

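The transcripts of 10 genes of the epithelial-mesenchymal transition were followed through 10 RNA sequencing libraries of lung cancer cell lines. They were CDH1, EPCAM, ESRP1, CDH2, VIM, ZEB1, ZEB2, SNAI1, SNAI2 and TWIST1, chosen by gene symbol as core regulators and markers of the transition, and they are 10 of the 46427 genes in the deposited table. The libraries came from H460 and A549, established human lung cancer lines. H460 was sequenced as 3 parental libraries grown flat on plastic (2D), 1 library of cells that survived cisplatin (CR), 2 of cells that survived paclitaxel (PR), 1 of cells that survived doxorubicin (DR) and 1 of tumor spheres (TS), and A549 as 1 2D and 1 TS library. By the methods of the study, survivors were the attached cells left after 3 days in 4 µM cisplatin, 5 nM paclitaxel or 0.5 µM doxorubicin and 3 more days in fresh medium. The TS cells were grown in suspension without serum and passaged at least 3 times, and the labels name their libraries CTC, after a culture for circulating tumor cells. Parental and A549 2D cells received no drug. Nothing in the labels says that replicate libraries came from separate cultures, so the p-values below measure the spread between these libraries, which may be technical.

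In this transition epithelial cells loosen their contacts, give up apical-basal polarity and take on the shape and motility of mesenchymal cells. Its core is a set of transcriptional repressors of the ZEB, SNAIL and TWIST families. They bind E-box motifs in the promoters of epithelial genes, CDH1 above all, and switch them off. In carcinoma the transition is seldom complete, and lines from lung tumors range from epithelial to strongly mesenchymal.

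Between 59499787 and 89541774 reads were counted on genes per library. The keratins KRT8, KRT18 and KRT19 had reads in all 10 libraries, from 3.57 FPKM (fragments per kilobase of transcript, scaled to library size) for KRT19 up to 3866 FPKM for KRT8, whereas EPCAM did not exceed 1.04 FPKM. PTPRC, CD3E, PECAM1, VWF and CDH5, which define immune and endothelial cells, stayed at or below 0.157 FPKM, while the lysosomal protein gene CD68 was present throughout at 15.0 to 69.8 FPKM. The libraries were therefore those of cells with keratins but little EPCAM. Genes with only 1 to 20 reads were more frequent in survivors than in parental cells. They numbered 6061 to 6188 in parental libraries, 6819 in CR, 8571 and 8842 in PR and 9939 in DR, against 6232 to 6690 in the 2 TS libraries and A549 2D.

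**Figure D1:**
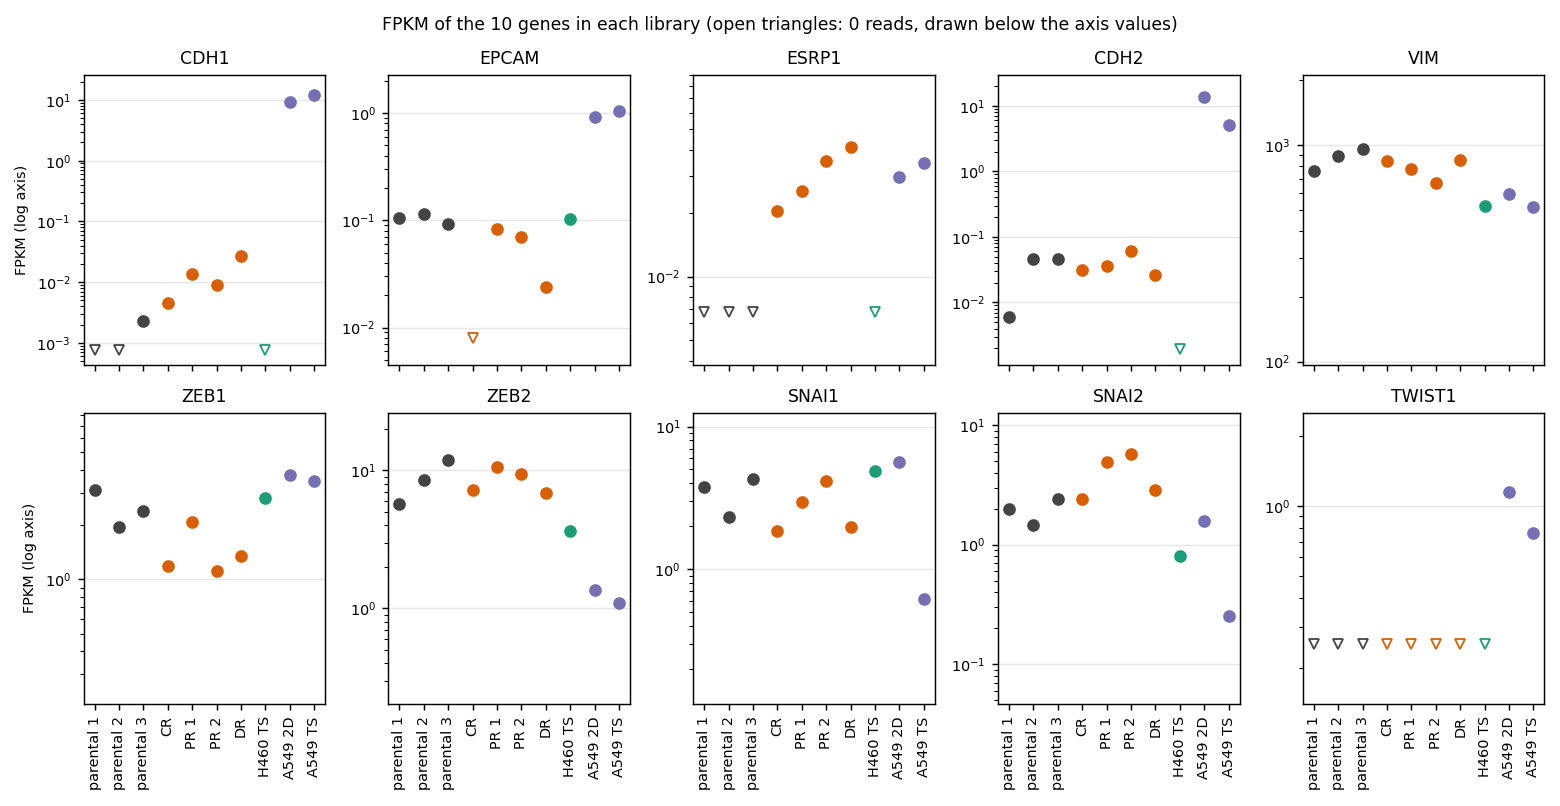
FPKM of each of the 10 genes (one panel a gene, own log axis) in each of the 10 libraries, colored by parental, survivor, H460 TS and A549. Filled points are single libraries and open triangles mark 0 reads. A549 stands above H460 for CDH1, EPCAM, CDH2 and TWIST1 and, by less, for ZEB1. It stands below H460 for ZEB2, and VIM lies within 519 to 964 FPKM in every library.

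The sequence just upstream of a start site is where these repressors would read an E-box, spelled CANNTG. The 250 bases before the start of ZEB1, ZEB2 and CDH2 are shown because these genes carried contrasts described below. They are read 5′ to 3′ on the gene's strand from RefSeq (GRCh38.p14), with E-boxes in capitals. They lie at chr10:31318167-31318416 on the plus strand for ZEB1, chr2:144520120-144520369 on the minus strand for ZEB2 and chr18:28177131-28177380 on the minus strand for CDH2. Of the 10 genes, 4 had an entry in the sequence table used (CDH2, VIM, ZEB1 and ZEB2).
ZEB1 upstream: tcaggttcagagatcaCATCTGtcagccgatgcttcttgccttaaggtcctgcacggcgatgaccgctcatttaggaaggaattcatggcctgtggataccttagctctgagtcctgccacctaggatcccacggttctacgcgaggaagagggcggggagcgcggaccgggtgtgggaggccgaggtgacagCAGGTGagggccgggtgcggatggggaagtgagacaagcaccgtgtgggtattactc
ZEB2 upstream: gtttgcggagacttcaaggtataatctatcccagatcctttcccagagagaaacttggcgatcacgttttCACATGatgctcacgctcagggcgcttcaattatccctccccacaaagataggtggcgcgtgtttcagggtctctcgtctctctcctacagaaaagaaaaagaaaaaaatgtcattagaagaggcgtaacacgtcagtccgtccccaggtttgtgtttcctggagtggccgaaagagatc
CDH2 upstream: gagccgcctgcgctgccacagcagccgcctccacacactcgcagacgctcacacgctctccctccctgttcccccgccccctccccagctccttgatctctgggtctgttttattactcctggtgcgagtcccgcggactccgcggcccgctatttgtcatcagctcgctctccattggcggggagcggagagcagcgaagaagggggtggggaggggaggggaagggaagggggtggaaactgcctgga
The ZEB1 window held 2 E-boxes, CATCTG starting 234 bases and CAGGTG starting 57 bases before the start. The latter is the form that the ZEB and SNAIL zinc fingers prefer. The ZEB2 window held CACATG 180 bases before the start, and the windows of CDH2 and VIM held none. CANNTG, which is its own reverse complement in form and so was searched for both strands at once, occurred in 61.8% of 35116 such windows, and CAGGTG or its reverse complement CACCTG, a subset of it, in 17.5%. A match here describes letters only.

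The 2 lines differed in adhesion genes and in repressors. With both cultures of each untreated line in 1 fit (2 A549 and 4 H460 libraries, culture as a covariate, edgeR's quasi-likelihood test with Benjamini-Hochberg adjustment), 5 of the 10 genes passed an adjusted p of 0.05, against 23.7% of 18488 genes tested. CDH1, CDH2, EPCAM and TWIST1 were higher in A549 and ZEB2 was lower. CDH1, TWIST1 and ESRP1 had enough reads to be tested only through A549, so their test results add nothing to the reads given below.

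CDH1 encodes E-cadherin, the adhesion molecule of epithelial junctions (chr16:68737292-68835537). It measured 9.29 FPKM in A549 2D and 11.9 FPKM in A549 TS. In untreated H460 it had 0, 0 and 1 read in the parental libraries and 0 in TS. Per library size, the 8022 A549 reads against that 1 read gave a ratio of 16416 with a 95% interval of 2946 to 648484, which takes each read as independent and covers counting error only. Untreated H460 thus had at most 1 E-cadherin read in a library. Fewer cells with a transcript and less of it per cell cannot be told apart in such bulk libraries. EPCAM, an epithelial surface glycoprotein (chr2:47369311-47387020), was at 0.923 and 1.04 FPKM in A549 and between 0.0919 and 0.114 FPKM in the 4 untreated H460 libraries, a log2 fold change of 3.16 ± 0.46 (SE, adjusted p = 0.00424, edgeR). The groups did not overlap, as for 27% of all genes in that direction, and EPCAM was low for an epithelial marker in both lines. ESRP1, a splicing factor that keeps epithelial isoforms (chr8:94641174-94707466), had 10 and 11 reads in A549 and 0 in untreated H460, at least 14.3-fold higher when the H460 libraries together are set at a floor of 3 reads, and missed the threshold (adjusted p = 0.053, edgeR).

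CDH2 encodes N-cadherin, which mesenchymal and neural cells carry in place of E-cadherin (chr18:27932879-28177130). It too was an A549 gene here, with 13.6 FPKM in 2D and 5.05 in TS against 0.00592, 0.0465 and 0.0456 FPKM in the parental libraries and 0 in H460 TS. The log2 fold change was 9.04 ± 0.73 (SE, adjusted p = 0.000547, edgeR). A549 thus held both cadherins and H460 neither above 0.0607 FPKM in any of its 8 libraries. VIM, the intermediate filament protein vimentin (chr10:17228241-17237593), was the most abundant of the 10 genes in every library. It measured 597 and 519 FPKM in A549 and 525 to 964 FPKM in untreated H460, ranges that overlapped (adjusted p = 0.417, edgeR).

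Among the repressors, ZEB2 (chr2:144384081-144520119) separated the lines downward. It was at 1.37 and 1.10 FPKM in A549 against 5.75, 8.49 and 11.9 FPKM in parental H460 and 3.64 FPKM in H460 TS, a log2 fold change of -2.35 ± 0.40 (SE, adjusted p = 0.00762, edgeR). The groups did not overlap, as for 21.6% of all genes in that direction. TWIST1, a basic helix-loop-helix factor (chr7:19113047-19117636), had 133 and 91 reads in A549 and 0 reads in all 8 H460 libraries, survivors included. Against a floor of 3 reads over the 4 untreated H460 libraries it was at least 153-fold higher in A549. The paralog of ZEB2, ZEB1 (chr10:31318417-31529804), was at 3.76 and 3.50 FPKM in A549 and 1.94 to 3.11 FPKM in untreated H460. Those ranges did not overlap, as for 27% of all genes in the higher direction, but the test was not passed (adjusted p = 0.239). SNAI1 and SNAI2, the zinc finger factors Snail and Slug (chr20:49982980-49988886 and chr8:48917598-48921429), overlapped between the lines (adjusted p = 0.706 and 0.252). Left without A549 2D, ZEB2 and EPCAM missed the threshold (adjusted p = 0.0604 and 0.0581) and SNAI1 passed it as lower in A549 (0.0252, edgeR).

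**Figure D2:**
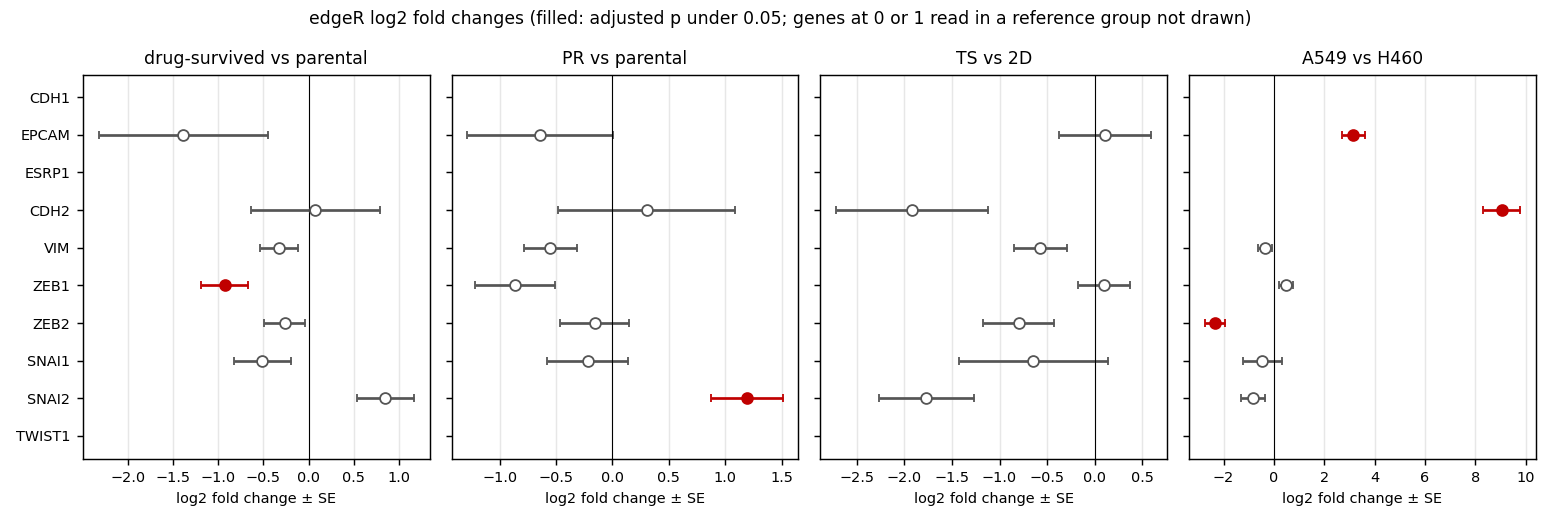
edgeR log2 fold changes (x axis, bars ± SE) of the 10 genes in the 4 comparisons, filled where the adjusted p was under 0.05. Genes that were not tested, or that had 0 or 1 read in one of the groups or lines, are not drawn. The A549 against H460 panel spans up to 9.04 for CDH2, and the other panels hold 1 filled point each (ZEB1 in survivors, SNAI2 in PR) or none (TS).

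In the drug survivors ZEB1 fell in the 4 survivor libraries compared as a group, SNAI2 rose in the PR cells, and ZEB2, SNAI1, VIM and CDH2 did not pass the test. When CR, PR and DR were set against the 3 parental libraries, 8 of the 10 genes had enough reads to be tested and ZEB1 and ESRP1 passed, the latter tested only through its reads in survivors, against 32.4% of 19902 genes. CDH1 had too few reads, and TWIST1 had none.

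ZEB1 was at 3.11, 1.94 and 2.37 FPKM in the parental libraries, at 1.18 in CR, 2.06 and 1.11 in PR and 1.34 in DR. PR replicate 1 lay inside the parental range and the other 3 survivors lay below it. The log2 fold change was -0.93 ± 0.26 (SE, adjusted p = 0.0218, edgeR), and 14.4% of all genes were called lower. ZEB1 missed the threshold without parental replicate 1 (adjusted p = 0.0825) or without PR replicate 2 (0.0577), and with limma on log2(FPKM + 1) or log2(FPKM + 0.1) (0.0720 and 0.0629). Library names in the labels have 2 forms, which split the survivors 1 to 3 and the parental libraries 2 to 1. ZEB1 was lower in survivors within both, by differences of log2(FPKM + 1) of -0.28 and -0.41.

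SNAI2 was at 2.00, 1.46 and 2.43 FPKM in the parental libraries. It was at 4.93 and 5.77 FPKM in PR, 2.42 in CR and 2.86 in DR. Both PR libraries stood above every parental one, as 42% of all genes did by any margin in PR, DR was just above them and CR was within their range. Over all 4 survivors the log2 fold change was 0.85 ± 0.31 (SE, adjusted p = 0.0606, edgeR), which missed the threshold and passed it in 5 of 14 alternative analyses. Within the name forms the difference was 0.89 and 0.86 in log2(FPKM + 1). In PR alone, 7 of the 10 genes were tested against the same 3 parental libraries and only SNAI2 passed, where 28.2% of 19430 genes did, with a log2 fold change of 1.19 ± 0.32 (SE, adjusted p = 0.0211, edgeR). Without parental replicate 2, PR replicate 1 or PR replicate 2 the adjusted p was 0.0682, 0.0962 or 0.203. A fit with the replicate number as a block also called ZEB1 in PR (log2 fold change -0.88, adjusted p = 0.0369).

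The other repressors overlapped between survivors and parental cells. ZEB2 was at 7.19 FPKM in CR, 10.6 and 9.39 in PR and 6.88 in DR, all within the parental 5.75 to 11.9 FPKM. SNAI1 was at 1.84 FPKM in CR, 2.98 and 4.13 in PR and 1.99 in DR, against 3.74, 2.34 and 4.29 in parental cells, so that CR and DR lay below the parental range and PR within it. The adjusted p was 0.393 for ZEB2 and 0.231 for SNAI1 (edgeR). VIM measured 788 ± 87.0 FPKM in survivors (SD, n = 4) and 871 ± 103 in parental cells (SD, n = 3, adjusted p = 0.246 over all genes, edgeR).

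The epithelial genes were near the limit of detection in H460. ESRP1 had 0 reads in each parental library and 8 reads in CR, 9 and 10 in PR and 18 in DR. Against a floor of 3 reads over the parental libraries, survivors were at least 10.5-fold higher, and the edgeR test was passed (adjusted p = 0.0113). ESRP1 had enough reads to be tested only through the survivors, so that call adds nothing to the reads themselves. It could not be tested without PR replicate 2 or without DR, and limma did not call it (adjusted p = 0.251 and 0.107 with the 2 pseudocounts). CDH1 had 2 reads in CR, 6 and 3 in PR and 14 in DR against 0, 0 and 1 in parental cells, a ratio of 17.6 (95% counting interval 2.88 to 722). Neither overlapped between the groups per library size, as for 9.04% of 15548 genes with a mean of 20 reads or fewer. Both genes ranked DR highest, the library with the most genes at 1 to 20 reads. Of the genes with 0 reads in every parental library, 2.9% had reads in every survivor library, and the converse held for 0.211%. The part of this rise in thinly covered genes in the ESRP1 and CDH1 reads was not tested. EPCAM went the other way, with 14, 14 and 13 reads in parental cells and 0 in CR, 11 and 8 in PR and 4 in DR. The ratio was 0.394 (95% counting interval 0.226 to 0.673), but the replicate test was not passed (adjusted p = 0.274, edgeR). The groups overlapped neither in FPKM nor in reads per library size. In that direction the first held for 12.8% of all genes tested. The second held for 1.9% of the genes with a mean of 20 reads or fewer.

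**Figure D3:**
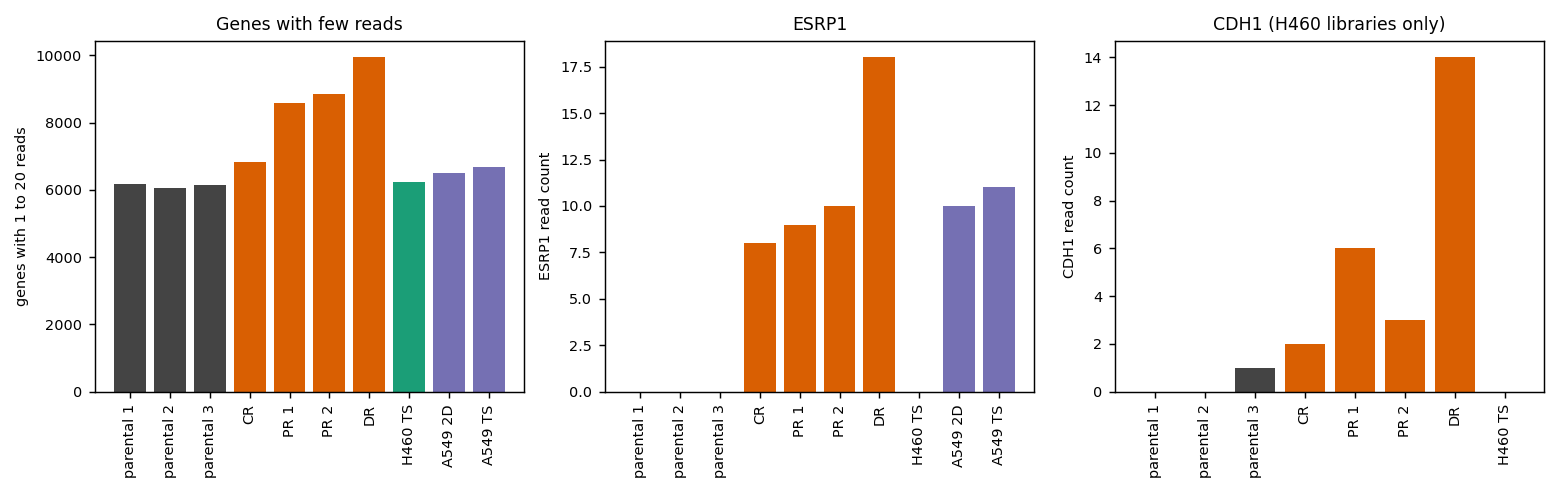
Bars show, per library, the number of genes with 1 to 20 reads (left, all 10 libraries), the ESRP1 read count (middle, all 10) and the CDH1 read count (right, 8 H460 libraries). DR has the tallest bar among the H460 libraries in each panel, with 9939 genes, 18 ESRP1 reads and 14 CDH1 reads.

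With 1 CR and 1 DR library, each drug by itself has no test. On log2(FPKM + 1) against the parental mean, 0 of the 10 genes differed over 2-fold in CR (12.1% of 13439 expressed genes did) and 0 in DR (10.8%), and SNAI2 alone did in PR (2.16-fold higher, 13% of genes). The nearest were ZEB1 and SNAI1 in CR, with differences of -0.66 and -0.62, and in DR, with -0.55 and -0.55. CDH1, CDH2, EPCAM, ESRP1 and TWIST1 did not exceed 0.114 FPKM in any H460 library. On this scale they could not differ 2-fold, so their part of these counts was fixed beforehand. Of the 10 genes, 7 met the limit for expressed genes, CDH1 and CDH2 only through A549. The counts are therefore not set against these shares.

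Many genes of the wider mesenchymal program rose in survivors. Of a list of 26 matrix, contractile and surface genes of mesenchymal cells, 24 were tested, 16 rose and 2 fell, with a median log2 fold change of 1.50 against 0.11 over all genes. Over all genes 18% were called higher and 14.4% lower. This list, like those of epithelial genes and further regulators below, was chosen with earlier results of these data known. Its share against all genes is therefore a description and not an independent test. Some genes of the list had enough reads to be tested only through survivors, so they could not be called lower. Among them were MMP2 and TNC, at 0 FPKM in every parental library, and SPARC, with 4, 5 and 4 parental reads. They are within these counts and the median, and within those of PR below. FN1, the matrix glycoprotein fibronectin, went from 516 ± 372 FPKM (SD, n = 3) in parental cells to 3981 ± 638 FPKM (SD, n = 4), with a log2 fold change of 2.80 ± 0.53 (SE, adjusted p = 0.00394, edgeR). COL1A1, a chain of type I collagen, was between 0.0848 and 0.193 FPKM in parental cells and between 0.783 and 6.51 in survivors, with the 2 PR libraries highest. FBN1, the microfibril protein fibrillin, was between 1.09 and 2.91 FPKM in parental cells and between 10.9 and 20.8 FPKM in survivors. The log2 fold changes of COL1A1 and FBN1 were 4.33 ± 0.75 and 2.99 ± 0.43 (SE, adjusted p = 0.0025 and 0.00101, edgeR). COL3A1, a chain of type III collagen, fell from 20.5 ± 6.45 to 4.84 ± 1.98 FPKM, and CALD1, the actin-binding caldesmon, from 33.2 ± 4.96 to 19.1 ± 3.57 (SD, n = 3 and 4, adjusted p = 0.000935 and 0.00865, edgeR). Without parental replicate 2, 10 of 24 rose, against 11.1% of all genes. In PR, compared with the same parental libraries, 15 of 23 rose and 2 fell, against 17.4% and 10.8% of all genes. The median log2 fold change of the list in PR was 1.58, and 1.43 or 1.05 without PR replicate 1 or 2. Summed over COL1A1, DCN, LUM and PDGFRA, fibroblast markers reached 0.430 to 2.87 FPKM in parental and 1.82 to 13.8 FPKM in survivor libraries, with DCN at most 0.319 and PDGFRA at most 0.725 FPKM in any library. The immune marker sum, nearly all of it CD68, was 15.0 to 16.9 FPKM in parental and 30.7 to 57.9 FPKM in survivor libraries. The part of either in the result was not tested, and COL1A1 is in both lists.

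Of 26 junction, keratin and epithelial factor genes, 19 were tested, 2 rose and 1 fell in survivors, against 18% and 14.4% of all genes. Their median log2 fold change was 0.21 against 0.11 over all genes. It was -0.0060 without parental replicate 2, where 1 rose (11.1% of all genes), and 0.87 without parental replicate 3, where 3 rose (17.0%). Without PR replicate 1 or 2 the number that rose was 1 (14.7% and 12.8% of all genes), and without CR it was 3 (18.0%). Without any 1 parental replicate 2 fell, where 21.4% to 33.3% of all genes were called in either direction. The one that fell was AP1M2, an epithelial subunit of a sorting adaptor, at 5.72, 3.63 and 1.32 FPKM in parental cells and 0.696 to 1.44 FPKM in survivors (log2 fold change -1.88 ± 0.43, SE, adjusted p = 0.00939, edgeR). In PR 5 of 19 rose and 1 fell, against 17.4% and 10.8% of all genes. Without parental replicate 2, 2 rose in PR, against 12.1% of all genes. The median log2 fold change in PR was -0.012, and 0.093 or -0.065 without PR replicate 1 or 2. Some genes of this list, the desmosomal DSP and the epithelial factor ELF3 among them, had enough reads to be tested only through survivors. They could not be called lower. DSP had 21, 0 and 0 reads in parental cells and 130 and 101 in PR, and ELF3 had 6, 6 and 21 against 107 and 211. The part of the rise in thinly covered genes in the epithelial calls was not tested. With the test limited to genes with at least 1 FPKM in 2 libraries of the fit, 0 of 8 rose in survivors and 0 of 8 in PR. Of 30 further regulators, 24 were tested, 9 rose and 4 fell in survivors, against 18% and 14.4% of all genes, and 2 fell without parental replicate 2, CR or DR, with upper-quartile factors, with the FPKM filter or with limma. The genes that rose included the TGF-β receptor TGFBR2 (4.90 ± 0.50 to 12.3 ± 2.70 FPKM, SD, n = 3 and 4) and the signal transducer SMAD3 (8.95 ± 1.53 to 20.3 ± 4.72 FPKM), with log2 fold changes of 1.21 ± 0.23 and 1.03 ± 0.21 (SE, adjusted p = 0.00388 and 0.00571, edgeR). The transcription factor SOX4 rose from 1.43 ± 0.24 to 4.78 ± 1.61 FPKM and the lysyl oxidase LOXL2 from 31.7 ± 6.73 to 81.1 ± 19.8 FPKM (adjusted p = 0.00145 and 0.00674, edgeR). Those that fell were TCF3, which encodes the E-box factors E12 and E47, the histone demethylase KDM1A, the E-box factor TCF4 and the transducer SMAD2. TCF3 went from 17.5 ± 3.48 to 7.66 ± 1.61 FPKM and KDM1A, a partner of Snail, from 38.6 ± 6.05 to 17.8 ± 2.18 FPKM (adjusted p = 0.00135 and 0.000787, edgeR). SMAD2 and TCF4 overlapped between the groups in FPKM (adjusted p = 0.0282 and 0.0411, edgeR). In PR 7 of 24 rose and 2 fell, against 17.4% and 10.8% of all genes. The inhibitory SMAD7 was among those that rose (0.460 ± 0.142 to 2.01 ± 0.339 FPKM, SD, n = 3 and 2, adjusted p = 0.00671, edgeR). Without parental replicate 2, 5 other regulators rose in survivors and 3 in PR, against 11.1% and 12.1% of all genes. The median log2 fold change of that list in PR was 0.25, and 0.29 or 0.065 without PR replicate 1 or 2.

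**Figure D4:**
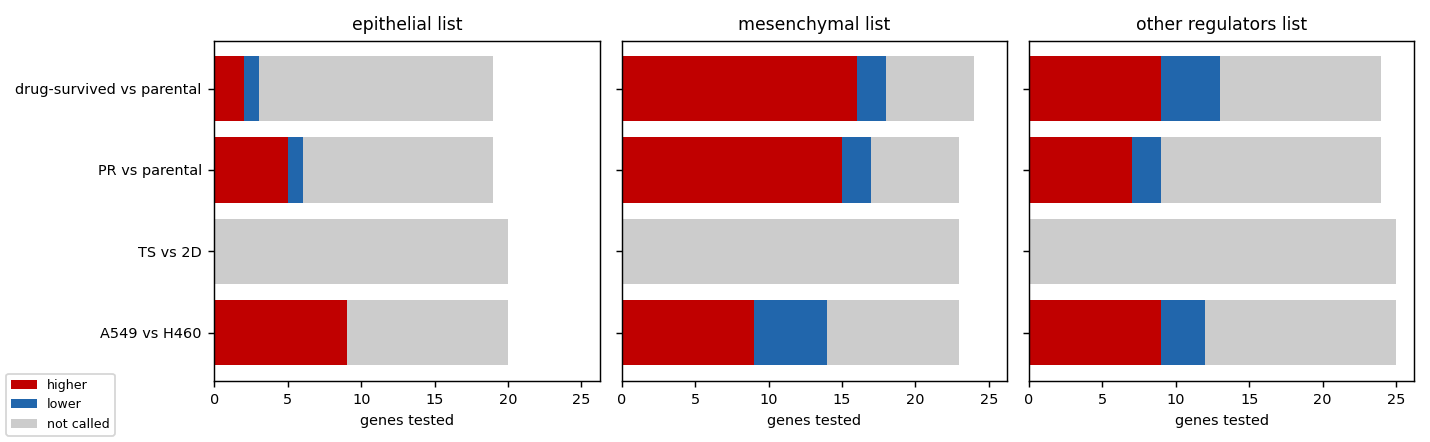
Number of genes tested (x axis) in the epithelial, mesenchymal and other regulators lists that were called higher (red), lower (blue) or not called (grey) by edgeR at an adjusted p under 0.05 in each of 4 comparisons. The mesenchymal list has 16 of 24 higher in survivors and 15 of 23 in PR, and no list has a call in TS against 2D.

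TS cells showed lower SNAI2 in both lines, but no gene of the 10 passed the test of TS against 2D. That fit took the cell line as a covariate and the lines as replicates (3 parental, 1 H460 TS, 1 A549 2D and 1 A549 TS library). edgeR called 0 of 10 genes, against 0.189% of 18488 genes, and 2 had an unadjusted p under 0.05 (7.36% of genes did). DESeq2 called 1 of the 10, against 2.9% of all genes, and limma 0.

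SNAI2 was at 0.798 FPKM in H460 TS against 2.00, 1.46 and 2.43 FPKM in parental cells, and at 0.252 FPKM in A549 TS against 1.57 FPKM in A549 2D. Both TS values were below all 4 2D libraries, as for 3.66% of all genes, with a log2 fold change of -1.77 ± 0.50 (SE, adjusted p = 0.331 with edgeR and 0.0206 with DESeq2). CDH2 was the other gene with an unadjusted p under 0.05. It was not called, with a log2 fold change of -1.92 ± 0.80 (SE, adjusted p = 0.664, edgeR), with 13.6 FPKM in A549 2D and 5.05 in A549 TS, and 3, 14 and 17 reads in parental cells against 0 in H460 TS. VIM was lower than in every 2D library, as for 3.66% of all genes, at 525 and 519 FPKM in the 2 TS libraries (adjusted p = 0.806, edgeR).

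SNAI1 went different ways in the lines. H460 TS, at 4.88 FPKM, stood above the parental 3.74, 2.34 and 4.29 FPKM, whereas in A549 it was at 5.67 FPKM in 2D and 0.617 FPKM in TS, 9.20-fold lower. The difference between the responses was -3.63 ± 0.82 on the log2 scale (SE, unadjusted p = 0.00177, adjusted p = 0.124, edgeR with a line by culture term), and its spread comes from the 3 parental libraries alone. None of the 10 genes passed that test after adjustment, against 0.471% of all genes, and SNAI1 was the only one with an unadjusted p under 0.05. ZEB2 showed its TS difference in H460, with 3.64 FPKM against at least 5.75 in parental cells, and 1.10 against 1.37 FPKM in A549. The responses of ZEB2 in the lines did not pass a test of their difference (adjusted p = 0.948). ZEB1 was at 2.80 FPKM in H460 TS, within the parental range, and at 3.50 against 3.76 FPKM in A549. CDH1 was at 11.9 FPKM in A549 TS and 9.29 in 2D, EPCAM at 1.04 and 0.923, ESRP1 had 11 and 10 reads and TWIST1 91 and 133 reads. With 1 TS library a line, the differences of log2(FPKM + 1) exceeded 2-fold for ZEB2 in H460 (-1.02, 3.3% of expressed genes) and for SNAI1, CDH2 and SNAI2 in A549 (-2.05, -1.27 and -1.04, 7.22% of expressed genes). In H460, CDH1, CDH2, EPCAM, ESRP1 and TWIST1 were too low to differ 2-fold on this scale, as was ESRP1 in A549. Taken against parental replicate 1 alone, ZEB2 was not over 2-fold apart (-0.54).

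Most expressed genes of the epithelial list were higher in A549 TS, in 1 library against 1. Of 16 expressed genes of that list, 10 were over 2-fold higher in A549 TS than in A549 2D and 0 lower, where 4.73% and 2.49% of all expressed genes were, with a median difference of 1.19 in log2(FPKM + 1) against -0.06 over all expressed genes. In H460 TS 1 was higher and 1 lower (1.48% and 1.82% of all expressed genes). However, 8 of the 16 were under 1 FPKM in every untreated H460 library, where this scale compresses differences, so the lines are not compared on it. The desmosomal plaque protein DSP went from 9.72 to 21.0 FPKM in A549, the epithelial factor ELF3 from 30.9 to 72.2, and the tricellular junction protein LSR from 2.23 to 11.2 FPKM. The tight junction proteins TJP1 and OCLN went the other way, from 24.3 to 13.7 and from 2.78 to 2.05 FPKM, as did AP1M2, from 11.0 to 10.2 FPKM. In the mesenchymal list, in A549 TS 5 of 19 were over 2-fold higher, FN1 among them (30.9 to 1136 FPKM), and 4 lower. In H460 TS 0 were higher and 5 lower, among them COL3A1 (1.30 against at least 13.6 FPKM) and the receptor kinase AXL (0.0400 against at least 4.87 FPKM). Single libraries carry no replicate check here. Over both lines edgeR called 0 of 20 epithelial, 0 of 23 mesenchymal and 0 of 25 other regulators, and limma called 0 in each. With edgeR 4, 6 and 9 of them had an unadjusted p under 0.05, as did 7.36% of all genes. DESeq2 called 2 epithelial genes higher, 2 mesenchymal genes lower and 5 other regulators lower. It called 2.9% of all genes, 1.68% of them all as higher. Fibroblast markers summed to 26.7 FPKM in H460 TS, nearly all of it LUM (26.6 FPKM), and their part in these differences was not tested.

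**Figure D5:**
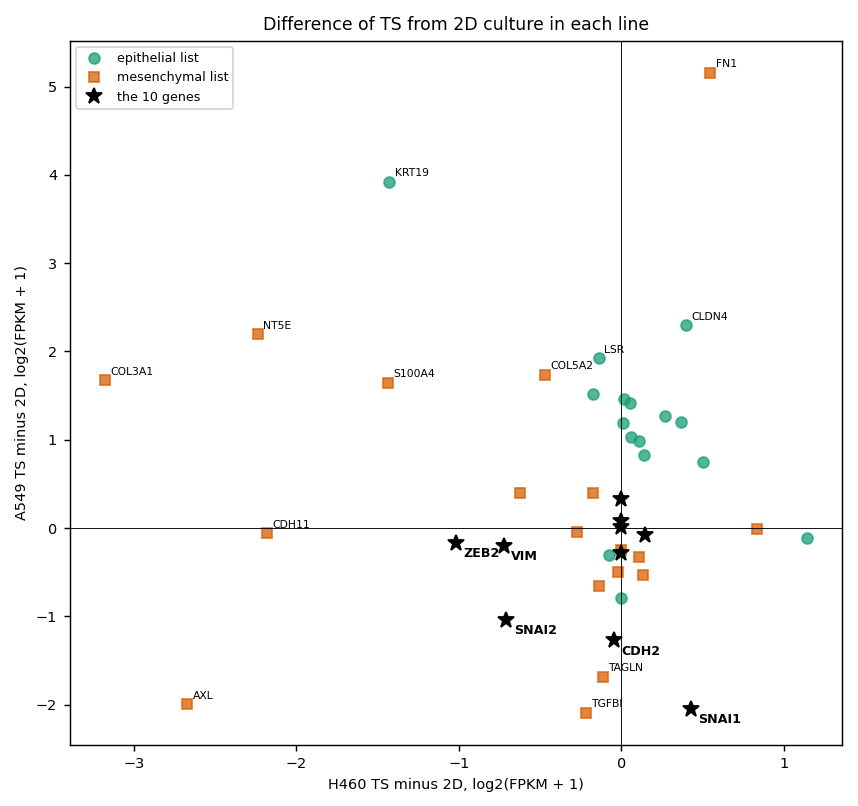
Difference of TS from 2D culture in log2(FPKM + 1) in H460 (x axis, 1 TS library against the mean of 3) and in A549 (y axis, 1 against 1). Points are genes of the epithelial and mesenchymal lists with at least 1 FPKM in 2 libraries, without 1 gene not reported here, and, as stars, the 10 genes of the transition. Epithelial genes lie mostly above the horizontal zero line, and SNAI1 sits at 0.43 in H460 and -2.05 in A549.

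The lines themselves differed in the same lists. Of 20 epithelial genes tested, 9 were higher in A549 and 0 lower, where 14.3% and 9.4% of all genes were (median log2 fold change 1.63 against 0.0043 over all genes). DSP was at 9.72 and 21.0 FPKM in A549 and at most 0.0521 in untreated H460, and ELF3 at 30.9 and 72.2 FPKM against at most 0.344 (adjusted p = 0.00143 and 0.000284, edgeR). Mesenchymal genes went both ways, with 9 of 23 higher and 5 lower, and 5 higher without A549 2D, A549 TS or parental replicate 2, the last with 3 lower. SPARC, a matrix glycoprotein, was at 3.33 and 2.64 FPKM in A549 and at most 0.0189 in untreated H460, and AXL at 75.8 and 18.3 against at most 7.33 FPKM (adjusted p = 0.000121 and 0.0115, edgeR). CDH11, the mesenchymal cadherin-11, was the reverse. It measured 254, 318 and 473 FPKM in parental H460 and 73.6 in H460 TS against 0.0515 and 0.00997 in A549 (log2 fold change -12.24 ± 0.54, SE, adjusted p = 7.02e-05, edgeR). H460, with almost no CDH1 or CDH2 reads, thus carried CDH11 at 208 to 473 FPKM in each 2D library, parental or survivor. SPARC had 4 or 5 reads in each untreated H460 library and was tested only through A549. CDH11 had 27 and 6 reads in A549 and was tested only through H460, so neither call adds to these values. Among other regulators 9 of 25 were higher in A549, including the chromatin protein HMGA2 (14.4 and 9.42 against at most 0.539 FPKM), and 3 lower, including the forkhead factor FOXC1 (2.41 and 1.40 against 19.1 to 22.1 FPKM, adjusted p = 0.00187 and 0.000725, edgeR). Without A549 2D, 5 of 24 were higher and 1 lower, and without parental replicate 2 or 3, 2 were lower.

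Over the 8 H460 libraries, ZEB2, SNAI1 and SNAI2 varied enough for their pattern to be compared with 5134 genes that met the same limits of level and range. By Pearson's r of log2(FPKM + 1), the genes most like ZEB2 were PIM1 (0.97), GPR161 (0.93) and RN7SL2 (0.91). Those most like SNAI1 were ADAMTS1 (0.94), SNORD159 (0.92) and IGSF8 (0.88), and those most like SNAI2 were ZFYVE26 (0.98), CNNM2 (0.97) and VASN (0.97). These 8 points share their parental controls and differ in depth, and the best of 5134 values is high by selection.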

How the data were processed

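RNA was sequenced from poly(A) TruSeq libraries of the established lines H460 (8 libraries) and A549 (2). The authors deposited 1 table with read counts, FPKM and TPM for each gene and library. The read counts deposited are whole numbers without normalization, the FPKM values were scaled by the authors for transcript length and library size, and the TPM values deposited beside them were not used. The submitters' processing notes name bcl2fastq 1.8.4, Trimmomatic, HISAT2 2.1.0, StringTie 2.1.3b and GRCh38, and which of them made the counts, and whether strand was used, is not given in the sources used here. Gene positions are those of RefSeq (GRCh38.p14).

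Counts were tested with edgeR 4.0.16 in R 4.3.3 (glmQLFit, robust, TMM factors, glmQLFTest) on genes that reached 10 reads in 2 or more libraries of the fit. P-values were adjusted over all genes tested by the method of Benjamini and Hochberg, and the threshold was 0.05. The SE is the log2 fold change divided by the root of F. Libraries were grouped by their labels, and the 4 survivors (3 drugs) were fitted as 1 group. PR against parental is contained in that comparison and shares its parental libraries, as do the comparisons of TS and of A549. Single libraries were compared without a test on log2(FPKM + 1), over genes with FPKM of at least 1 in at least 2 libraries. Read ratios have exact 95% intervals, and a group at 0 reads was set to 3 reads. The scripts were tested on simulated data. The alternatives were DESeq2 1.42.0, limma 3.58.1 on FPKM with 2 pseudocounts (1 and 0.1), upper-quartile factors, other filters, the name form as a covariate, a replicate block and leaving out each library. All 10 genes are named. From each list the up to 4 genes with the largest change in each direction were eligible, among called genes with a mean FPKM of at least 1, and list genes named for single TS libraries were chosen after their values were seen. 1 gene of the mesenchymal list is counted there but not reported by name. The 10 genes and the lists were chosen with earlier results of these data known.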

Additional observations from a re-analysis of the deposited data

Results flagged for a closer look

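The TS values of SNAI1 lay on opposite sides of 2D culture in the 2 lines. The TS difference in A549 minus that in H460 was -3.63 on the log2 scale (unadjusted p = 0.00177, adjusted p = 0.124 over all genes, edgeR), so the difference passed the unadjusted threshold and not the adjusted one. It rests on 1 TS library in each line and 1 A549 2D library. This test was added after the data were seen, and 0.471% of 18488 genes passed it at an adjusted p under 0.05.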

How the results depend on the processing

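Among single genes, 375 of the tested values kept direction and call over the alternatives, 11 lost a call, 9 gained one and 29 changed direction. The calls of ZEB1, SNAI2 and ESRP1 each rested on particular libraries or tools, as given with their values, and that of CDH2 in A549 held in each alternative. Libraries left out at times leave an arm with 1 library, which is then assumed to vary like the others. CDH1 had at most 14 reads, ESRP1 18 and EPCAM 14 in an H460 library, and their ratios are only as precise as those counts allow.

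In survivors against parental cells, 2 of the 10 genes were called in the reported fit, 0 with limma under both pseudocounts, and 0 to 3 with a library left out. All genes called numbered 6444, and 4235 to 6587 with a library left out. In PR, 1 of the 10 was called, 2 without a filter on low counts, and 0 to 1 with a library left out. All genes called in PR numbered 5473, against 2762 with the FPKM filter, 3574 with the name form as a covariate, and 744 to 6652 with a library left out (744 without PR replicate 2, 1536 without PR replicate 1, 3508 without parental replicate 2). In TS against 2D, 0 of the 10 was called, 1 with DESeq2, and 0 to 0 with a library left out. All genes called there numbered 35, against 537 with DESeq2, 70 without a filter, 19 with the FPKM filter, 8 and 20 with limma at pseudocounts of 1 and 0.1, and 5 to 331 with a library left out (5 without parental replicate 2). Between the lines 5 of the 10 were called, 3 of the 7 that the FPKM filter left to test, and 2 to 6 with a library left out (2 without A549 2D, 3 without A549 TS). All genes called between the lines numbered 4382, against 2836 with the FPKM filter and 1824 to 3828 with a library left out. The cause of these shifts was not tested, except that a filter or a library left out removes genes from the test.

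With upper-quartile factors the share of calls that were higher went from 55.6% to 68.6% in survivors and from 61.7% to 75.5% in PR, and limma gave 79.6% and 79.0% in PR. The median log2 fold change over all genes moved from 0.11 to 0.29 in survivors and from 0.05 to 0.30 in PR. Under these factors ZEB1 was at -0.74 (adjusted p = 0.0427) and SNAI2 at 1.05 (0.0380) in survivors. Genes over 2-fold apart in single libraries changed from 0 to 1 in CR and from 1 to 2 in H460 TS at a pseudocount of 0.1, from 1 to 0 in PR with parental replicate 3 as the only control, and from 1 to 0 in H460 TS with parental replicate 1. Of the single-library values, 56 moved by more than the parental SD and 114 did not.

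The directions that changed were those of uncalled genes. In survivors, CDH2 was at -0.051 with the name form as a covariate and between -0.39 and 0.43 with a library left out, and ZEB2 at 0.0036 and 0.0078 with limma. In PR, ZEB2 was at 0.063 with upper-quartile factors, 0.0030 with the FPKM filter and 0.23 and 0.26 with limma, and between -0.34 and 0.11 with a library left out. SNAI1 in PR was at 0.033 with those factors, 0.047 and 0.065 with limma and between -0.46 and 0.036 with a library left out, and CDH2 between -0.13 and 0.69. In TS against 2D, leaving out a library put ZEB1 between -0.050 and 0.19 and SNAI1 between -3.14 and 0.49. Between the lines it put VIM between -0.64 and 0.089 and SNAI1 between -2.93 and 0.69.

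PR and parental libraries share replicate numbers 1 and 2 in the labels. Across 19220 genes the replicate differences of the pairs had a Pearson's r of 0.149, and with 2 pairs this does not show a pairing. With the replicate number as a block, 6550 genes and 2 of the 10 were called in PR, against 6652 and 1 for the same 4 libraries unblocked. ZEB2 and SNAI1 were at 0.11 and 0.055 with the block and at 0.11 and 0.022 without it. ZEB1 in PR was the only one of the 10 whose call the block changed.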
